A study of Ovis aries with 42 samples.

Results

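The comparison set the pars tuberalis against the hypothalamus of ewes in the follicular phase of the estrous cycle. Its members were the 7 libraries labelled pars tuberalis and follicular (numbers 29 to 35) and the 7 libraries labelled hypothalamus and follicular (numbers 8 to 14), chosen by their labels, which made 14 of the 42 libraries of the series. All came from adult females of Rasa Aragonesa, a Spanish sheep breed, and no agent or genotype is named for any group. The other 28 libraries were taken from the same tissues in the luteal phase and in anestrus, with 7 libraries in each group, and served here to choose tissue features and to look at the follicular differences again. Each library measured total RNA of a piece of whole tissue by sequencing. Nothing in the labels ties a library to an ewe, within a group or across the tissues, so p-values measure only the spread between these samples, which may be technical.

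The hypothalamus is a region at the base of the brain whose neurons release the peptides that steer the pituitary, among them the gonadotropin-releasing hormone that brings on ovulation. The pars tuberalis is a thin sleeve of pituitary tissue around the stalk that joins both organs. It is rich in melatonin receptors, and through thyrotropin it passes the length of the night on to the hypothalamus, which in sheep sets the breeding season. In the follicular phase, estradiol from growing follicles acts on hypothalamus and pituitary alike.

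Libraries held between 18162414 and 30855105 counts (mean 24480021 ± 3418677, SD, n = 14), and no columns were identical. The deposited table gives Ensembl sheep gene IDs (called features here) without gene names, and the reference gene table matched 0 of the 27054 IDs. Features are therefore described by ID, level and behaviour across libraries. Marker genes of neurons, glia or pituitary cells were not analysed here, so the tissue labels were checked with features of the other phases instead. Of these, 166 were higher in the pars tuberalis and 367 were higher in the hypothalamus by over 8-fold in both the luteal and the anestrous libraries, and passed a test against a 2-fold difference in both phases.

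The follicular libraries of the 2 tissues did not overlap in either set of features, but hypothalamus library 11 lay between the tissues. The median level of the pars tuberalis features ran from 14.4 to 18.8 CPM (counts scaled to a common library size, median 15.2) in the pars tuberalis libraries and from 0.225 to 0.996 CPM in 6 hypothalamus libraries, while hypothalamus library 11 held 3.07 CPM. That was 9.93 times the median of the other hypothalamus libraries and 20.2% of the pars tuberalis median. For the hypothalamus features the same library held a median of 5.91 CPM, against 14.1 to 19.8 CPM in the other 6 hypothalamus libraries and 0.410 to 1.06 CPM in the pars tuberalis. Library 11 was the highest hypothalamus library in 133 of the 164 pars tuberalis features tested in the follicular phase and the lowest in 256 of the 357 hypothalamus features. With each feature's hypothalamus median over the other phases set to 0% and its pars tuberalis median to 100% on the linear CPM scale, library 11 had a median position of 16.7% over the pars tuberalis features and 60% over the hypothalamus features. On this scale it was past the middle, towards the pars tuberalis, in the hypothalamus features. In the pars tuberalis features it was nearer to the hypothalamus. The other 6 follicular hypothalamus libraries lay from -83.6% to -18.3% over the hypothalamus features. In fold terms the order was the reverse. Its pars tuberalis features were nearer to the pars tuberalis. Its hypothalamus features, at 37.6% of the median of the other hypothalamus libraries and 1200% of the pars tuberalis median, were nearer to the hypothalamus. Both tissues stayed separate with library 11 included. Over 7 against 7 libraries the difference of means was 15.2 CPM for the pars tuberalis features and -13.9 CPM for the hypothalamus features (two-sided exact permutation p = 0.000583 each, the smallest that this design allows, adjusted p = 0.000972 over the 5 library measures tested). Why library 11 differs was not tested, and results that rest on it are given below with and without it.

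**Figure D1:**
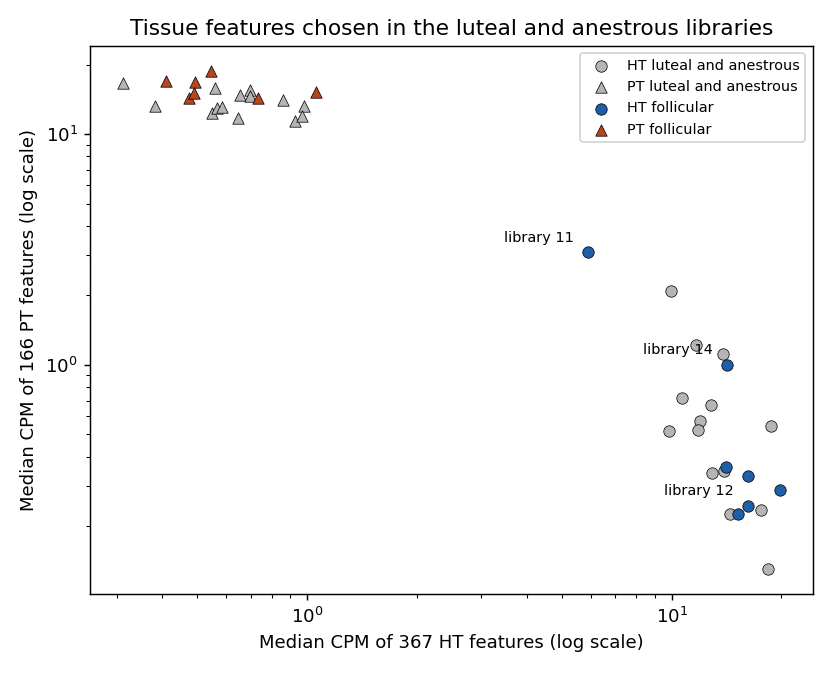
Median CPM per library of the 367 hypothalamus (HT) features (x axis, log scale) and the 166 pars tuberalis (PT) features (y axis, log scale) chosen in the luteal and anestrous libraries. Each point is a library, with follicular ones in colour. Hypothalamus library 11 lies between the tissues at 5.91 CPM on the x axis, nearer to the other hypothalamus libraries on that log axis, and at 3.07 CPM on the y axis, nearer to the pars tuberalis.

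Pars tuberalis and hypothalamus differed in most features in the follicular phase. The quasi-likelihood test of edgeR gave an adjusted p under 0.05 for 10252 of 16076 features (63.8%). The pars tuberalis had the higher level in 4893 (30.4%) and the hypothalamus in 5359 (33.3%). In bulk tissue, fewer cells of a type and less RNA per cell cannot be told apart. A test against a 2-fold difference kept 2986 features (18.6%), 1125 (7%) with the higher level in the pars tuberalis and 1861 (11.6%) with the higher level in the hypothalamus. The pars tuberalis thus had 37.7% of these larger differences under TMM scaling. Scaled by library totals alone it had 49.2% (1491 against 1541), with the median log2 fold change of all features at 0.10 in place of -0.03. Without library 11 the 2-fold test called 3605 features, 1542 in favour of the pars tuberalis and 2063 in favour of the hypothalamus, and 2954 of the 2986 were among them.

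Every pars tuberalis library lay above every hypothalamus library in 2547 features, and the reverse held in 2602, together 32% of those tested. Among these 5149 features without overlap, 5146 had an adjusted p under 0.05 and 2518 passed the 2-fold test. Fewer libraries leave less room for overlap, and the count of separated features rose whichever single library was left out. It ran from 5273 to 6713, with the highest count without library 11 and 6186 without pars tuberalis library 33. At the other end, 2713 features (16.9%) differed by less than 1.5-fold, in that the 95% interval of their fold change lay inside that limit, and 406 of these still passed the test against no difference.

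**Figure D2:**
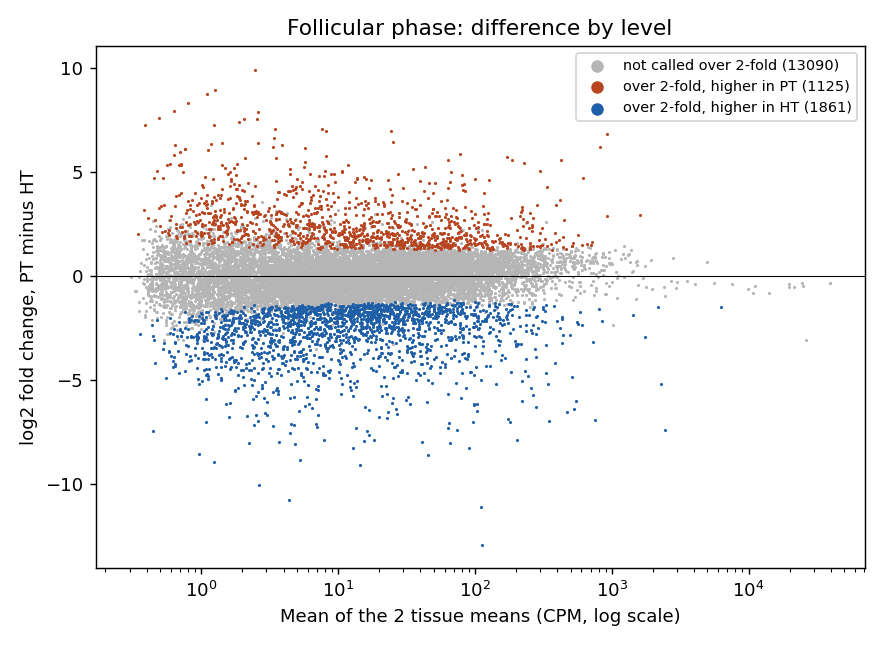
Each point is 1 of 16076 features: mean of the 2 tissue means in CPM (x axis, log scale) against the log2 fold change of pars tuberalis minus hypothalamus in the follicular phase (y axis). The 1125 and 1861 features that passed the 2-fold test are spread over the whole range of levels, on either side of 0.

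With TMM scaling, differences under 2-fold were more often in favour of the pars tuberalis and larger ones in favour of the hypothalamus. Among features with an adjusted p under 0.05, those under 2-fold numbered 2653 in favour of the pars tuberalis and 2278 in favour of the hypothalamus. Between 2-fold and 4-fold the numbers were 1498 and 1814, and between 4-fold and 8-fold 435 and 674. Over 32-fold stood 62 features of the pars tuberalis and 136 of the hypothalamus. This last gap was narrower without library 11, where the 2-fold test called 135 features of the pars tuberalis and 164 of the hypothalamus beyond 32-fold.

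**Figure D3:**
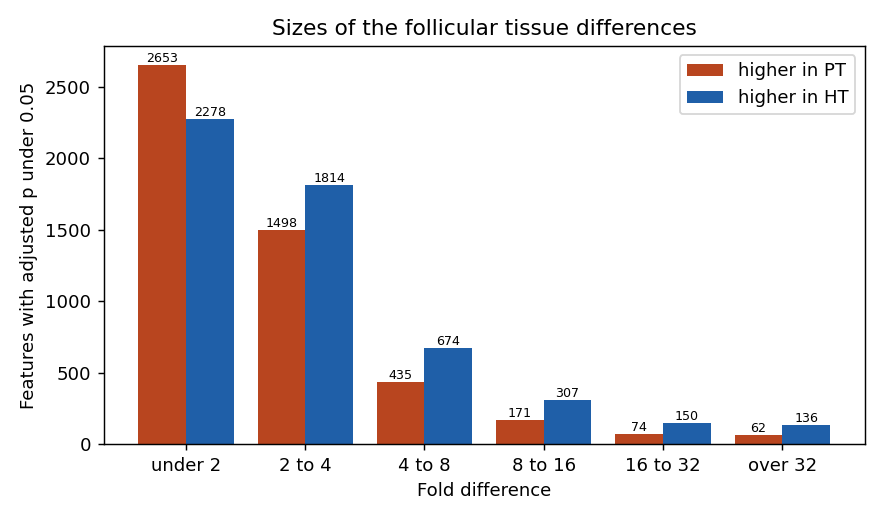
Number of features with an adjusted p under 0.05 (y axis) by size of the fold difference (x axis), for features higher in the pars tuberalis (PT) and in the hypothalamus (HT), over all 14 follicular libraries. The bars fall from 2653 and 2278 under 2-fold to 62 and 136 over 32-fold.

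The features over 32-fold differed in level between the tissues. Among the 62 of the pars tuberalis, 39 had a mean under 10 CPM there and 9 a mean over 100 CPM, with a median of 5.11 CPM. Of all 16076 features tested, 7382 had a pars tuberalis mean under 10 CPM and 1668 over 100 CPM, with a median of 12.1 CPM. Among the 136 of the hypothalamus, 48 lay under 10 CPM and 34 over 100 CPM, with a median of 23.8 CPM and a highest mean of 4852 CPM. In libraries of the other phases, 39 of the 62 and 124 of the 136 passed the 2-fold test in the same direction in both the luteal phase and anestrus (62.9% and 91.2%, against 10.9% of all features tested). Without library 11, the 135 features of the pars tuberalis had a median of 7 CPM, and 79 of them lay under 10 CPM. In both other phases 83 of them passed (61.5%). The 164 of the hypothalamus had a median of 14.7 CPM, with 65 under 10 CPM, and 138 passed (84.1%).

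Called features were found at every level. The share with an adjusted p under 0.05 was 35.7% of 1088 features under 1 CPM, 59.2% of 5744 between 1 and 10 CPM, 68.4% of 7624 between 10 and 100 CPM and 77.1% of 1620 above 100 CPM. Along the same classes the median SE of the log2 fold change fell from 0.533 to 0.134, so the precision moved with these shares. The 2-fold test called 13.9%, 21.7%, 17% and 18.1% of the same classes.

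The features of each tissue's 2-fold calls took up a modest share of its RNA, and that share is a description of the same comparison. The 1125 features higher in the pars tuberalis held from 8.17% to 10% of the counts of a pars tuberalis library, and from 1.46% to 2.62% of a hypothalamus library. The 1861 features higher in the hypothalamus held from 12.4% to 19.8% of the counts of 6 hypothalamus libraries, 5.86% of library 11 and from 2.23% to 3.35% of a pars tuberalis library. The most abundant features were largely common to both tissues: 18 of the 20 with the highest mean CPM were shared, and 62 of the top 100.

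In the follicular libraries the hypothalamus concentrated more of its counts in a few features. The 10 largest features of a library took 20.1% ± 2.40 of the counts in the pars tuberalis (from 15.9% to 22.2%) and 28.1% ± 5.02 in the hypothalamus (from 22.9% to 38.5%, SD, n = 7 each). The groups did not overlap (difference -8.04 percentage points, two-sided exact permutation p = 0.000583, adjusted p = 0.000972). In the other phases they did: 14.9% to 35.2% in the pars tuberalis against 19.4% to 43% in the hypothalamus in the luteal phase. In anestrus the shares were 17.6% to 29.4% against 14.8% to 40.8%. Several follicular features with large means had neighbouring IDs and lay higher in the hypothalamus. Examples are ENSOARG00000000016 (hypothalamus mean 43320 CPM, pars tuberalis mean 34608), ENSOARG00000000035 (43378 and 34605), ENSOARG00000000032 (29097 and 21102) and ENSOARG00000000010 (17857 and 10219). How much of the difference in shares such features carry was not tested. Thinned to a common depth of 18162414 counts, pars tuberalis libraries had 18150 ± 206 and hypothalamus libraries 18348 ± 275 features with at least 1 count, a difference not past the threshold (two-sided exact permutation p = 0.162, adjusted p = 0.202, n = 7 each). With at least 5 counts asked for, the difference was -19.9 features (exact permutation p = 0.849). With at least 10 counts it was -25.6 features (exact permutation p = 0.79). Leaving out hypothalamus library 12, which had the fewest at 17765, brought the difference at 1 count to -294.6 features (exact permutation p = 0.00408). That was 1 of 14 such settings, and the rest had exact permutation p from 0.112 to 0.319.

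Of the 4 features named by rule, 2 were higher in the pars tuberalis. ENSOARG00000011019, which had the lowest p of the 2-fold test in that direction, lay at 17 to 31.2 CPM in the pars tuberalis (median 19.5) and at 0.987 to 1.79 CPM in the hypothalamus (median 1.3). The groups lay far apart and library 11, at 1.7 CPM, was among the other hypothalamus libraries. Its log2 fold change was 4.03 ± 0.197 SE (16.3-fold, edgeR adjusted p = 1.12e-08). ENSOARG00000007112 had the highest level among the pars tuberalis features that passed the 2-fold test without overlap, from 1254 to 2529 CPM with a median of 1953 CPM. In the hypothalamus 5 libraries held from 2.05 to 6.73 CPM, library 14 held 27.4 CPM and library 11 held 70.3 CPM. The high hypothalamus values thus fell in the 2 libraries with the highest levels of pars tuberalis features. ENSOARG00000007112 was itself over 8-fold in both other phases (log2 fold change 6.27 luteal, 5.69 anestrous), as those features were, so it is not independent of them. Its log2 fold change was 6.83 ± 0.939 SE (edgeR adjusted p = 1.78e-05), and 8.01 without library 11.

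On the hypothalamus side, ENSOARG00000012573 had the lowest p. Its level ran from 13.8 CPM in library 11 to 32.1 CPM in library 14, with a median of 30.2 CPM, against 0.418 to 1.24 CPM in the pars tuberalis (median 0.760). The log2 fold change was -5.05 ± 0.262 SE (33.1-fold lower in the pars tuberalis, edgeR adjusted p = 1.38e-08). ENSOARG00000000004 was the most abundant of those that passed the 2-fold test without overlap, with 6911 CPM in library 11 to 12472 CPM in library 10 (median 9412) against 1651 to 5389 CPM in the pars tuberalis (median 3171). This was a smaller difference, with a log2 fold change of -1.51 ± 0.220 SE (2.85-fold lower in the pars tuberalis, edgeR adjusted p = 2.99e-05, and 0.0237 against 2-fold). It did not pass the edgeR 2-fold test in the luteal phase (adjusted p = 0.302) and just passed it in anestrus (adjusted p = 0.0430). In both features library 11 was the lowest hypothalamus library and still above every pars tuberalis library.

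A pair of features chosen after their values were seen show how single libraries weigh in. ENSOARG00000009137 held 221215 CPM in hypothalamus library 11, which is 18.6% of the counts of that library, and from 852 to 50511 CPM in the other 6 hypothalamus libraries. In the pars tuberalis it ran from 101 CPM in library 29 to 23255 CPM in library 31, so the tissues overlapped. The log2 fold change of -3.09 ± 1.29 SE just passed (edgeR adjusted p = 0.0472), and it was -1.69 without library 11 (edgeR adjusted p = 0.201). ENSOARG00000013347 held 14807 CPM in pars tuberalis library 33, from 504 to 1429 CPM in the other 6 pars tuberalis libraries and from 273 to 642 CPM in the hypothalamus. With all libraries its log2 fold change was 2.95 (edgeR adjusted p = 0.00298), against 1.23 without library 33 (edgeR adjusted p = 0.000756).

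**Figure D4:**
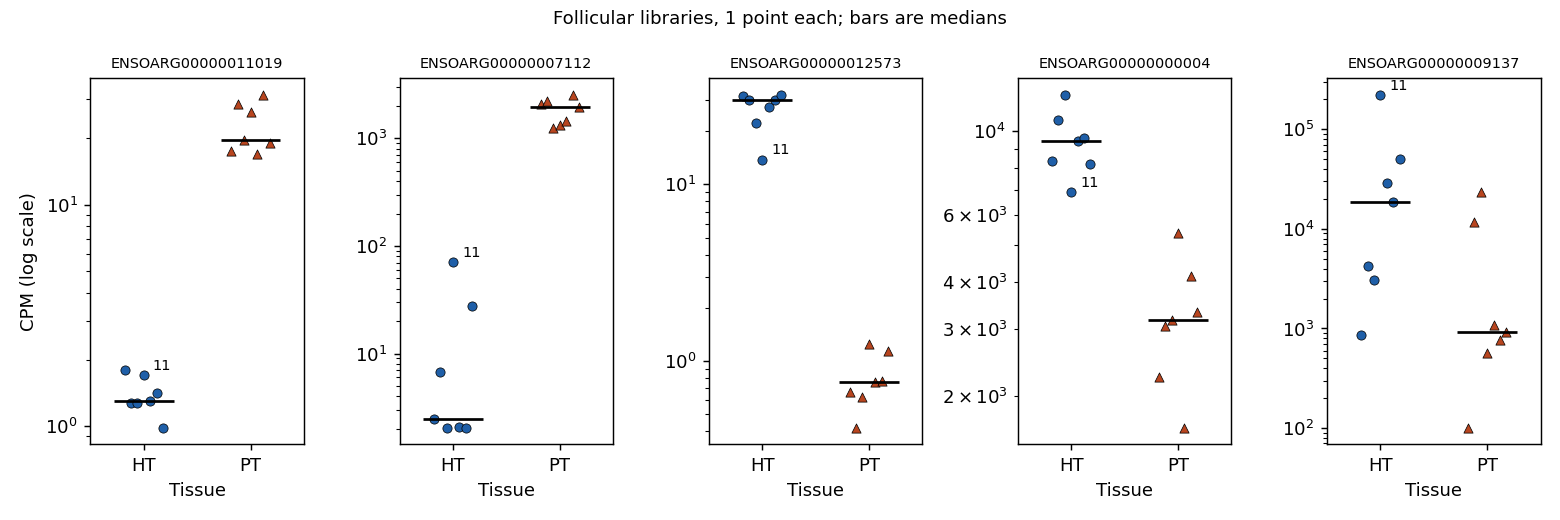
CPM (y axis, log scale) of 5 features in each follicular library, with hypothalamus (HT) and pars tuberalis (PT) side by side; points are libraries, bars are medians, and hypothalamus library 11 is marked. The groups are apart in the first 4 features and overlap in ENSOARG00000009137, where library 11 reaches 221215 CPM.

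A few features were found in 1 tissue alone at this depth. There were 7 features with at least 10 counts in all 7 pars tuberalis libraries and 0 counts in all 7 hypothalamus libraries, and 6 with the reverse pattern. The 7 had means from 0.782 to 4.93 CPM in the pars tuberalis, at least 45.7-fold to 288-fold higher than a floor of 3 counts over the whole hypothalamus group. The 6 had means from 0.886 to 8.78 CPM in the hypothalamus, at least 49.5-fold to 491-fold higher than the same floor over the pars tuberalis group. In the other phases the tissue that lacked them still held up to 20 counts in a group of 7 libraries, and 1 of the 7 and 2 of the 6 were at 0 there in both other phases. Fewer libraries make this pattern easier to meet, so the number could not fall when a library was left out. It was 13 in all with every library and 13 to 35 with any single library left out. The highest came without library 11 (22 and 13).

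The follicular differences were then looked up in libraries that had no part in them. Of the 1125 features higher in the pars tuberalis by the 2-fold test, 1085 were tested in the luteal phase. There 1084 had the same direction (99.9%, against 90.6% of all features tested in both). In the same phase 747 passed the 2-fold test again (68.8%, against 14.5% of all features tested there). In anestrus 1073 of 1087 had the same direction (98.7%, against 88.6% of all). The 2-fold test was passed there by 578 (53.2%, against 14.2% of all). Their median log2 fold change was 2.17 in the follicular, 1.97 in the luteal and 1.77 in the anestrous libraries. Of the 1861 features higher in the hypothalamus, 1285 of 1811 passed again in the luteal phase (71.0%) and 1307 of 1812 in anestrus (72.1%), with medians of -2.31, -2.05 and -2.15. Features picked for a large difference tend to show a smaller one in fresh libraries, and no test compared these medians. Of the 2858 follicular 2-fold calls tested in both other phases, 1650 passed the 2-fold test in the same direction in every phase. They were 515 in the pars tuberalis and 1135 in the hypothalamus. Among all 16076 features, 1748 (10.9%) passed it in both other phases in the direction of their follicular difference.

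The tissue features chosen in the other phases gave the same picture from the opposite side. All 164 pars tuberalis features tested in the follicular phase were higher there with an adjusted p under 0.05, and 155 passed the 2-fold test (94.5%, against 18.6% of all features). Without library 11 all 166 were tested and 166 passed. Their median log2 fold change was 4.08 in the follicular phase, 4.09 in the luteal phase and 4.04 in anestrus, and it was 4.92 in the follicular phase without library 11. Of 357 hypothalamus features, all were lower in the pars tuberalis, 356 with an adjusted p under 0.05, and 353 passed the 2-fold test (98.9%). Their median was -4.46 in the follicular phase, -4.08 in the luteal phase and -4.31 in anestrus, and -4.59 in the follicular phase without library 11. Both sets were chosen for large differences in the luteal and anestrous libraries, which favours large medians there. The medians of the phases were not compared by a test.

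**Figure D5:**
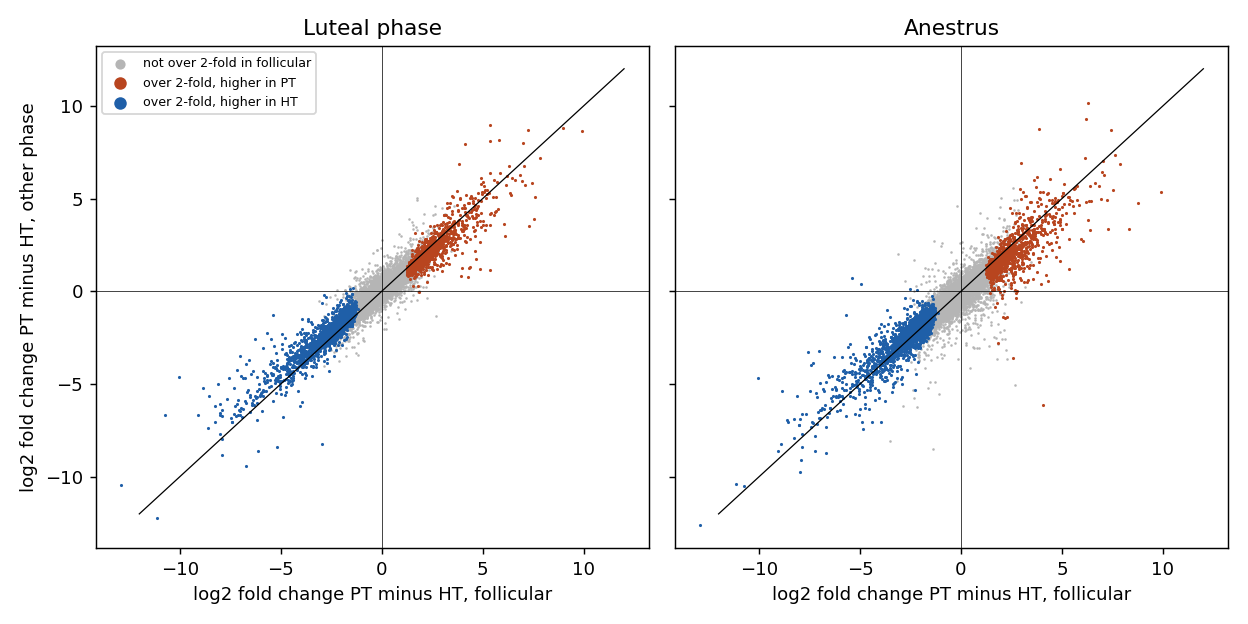
Log2 fold change of pars tuberalis minus hypothalamus in the follicular phase (x axis) against the same value in the luteal phase (left) and in anestrus (right); each point is a feature, the diagonal marks equal values. Across features Pearson's r was 0.953 and 0.915 as a description, since features are not independent replicates, and the coloured 2-fold calls lie along the diagonal.

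No feature was called for a tissue difference that set the follicular phase apart. In a fit of all 42 libraries, the follicular difference minus its mean over the luteal phase and anestrus was called for 0 of 17296 features (0%) by edgeR, with a lowest adjusted p of 0.26. At an unadjusted p under 0.05 there were 881 features, where 5% of those tested is 865, but this number depended on single libraries and on the tool. It was 1817 of 17391 without anestrous hypothalamus library 15, 1120 of 17423 without library 11 and 2108 of 17375 without both, and it was 1932 with limma-voom. None of these settings gave a call after adjustment (0 features each). DESeq2 called 7, of which 1 had a fitted difference beyond 10 (log2), while limma-voom called none (0 features). Among the 2858 features over 2-fold in the follicular phase and tested in both others, 36 had no adjusted p under 0.05 in either other phase, 17 in favour of the pars tuberalis and 19 in favour of the hypothalamus. These 36 were picked for that pattern, so their 24 unadjusted p-values under 0.05 for the phase difference (edgeR) are a description, and none was called, as none was among all features.

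The features nearest to such a difference are given as values. ENSOARG00000001727 had the lowest p: it lay at 4.50 ± 1.55 CPM in the pars tuberalis and 25.2 ± 6.62 CPM in the hypothalamus in the follicular phase, and the tissues did not overlap there (2.41 to 7.05 against 17.8 to 37.2 CPM). In the luteal phase it lay at 6.89 ± 1.53 and 18.1 ± 6.28 CPM, and in anestrus at 8.28 ± 2.86 and 14.2 ± 4.46 CPM (SD, n = 7 each). The difference of log2 fold changes was -1.40 ± 0.283 SE (edgeR adjusted p = 0.26), and DESeq2 called it (adjusted p = 0.0225). In the opposite direction, ENSOARG00000026243 had the lowest p and few counts, with 0 CPM in every luteal and anestrous pars tuberalis library, up to 1.05 CPM in the follicular ones and 0.367 to 1.48 CPM in the follicular hypothalamus. No size is given for it.

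Without library 11 the common biological coefficient of variation was close in both tissues, but by distance from their group hypothalamus libraries 11 and 12 both stood out. The common biological coefficient of variation was 27.7% in the pars tuberalis, 32.1% in the hypothalamus and 28.1% in the hypothalamus without library 11. A range of over 8-fold between libraries was found in 227 features in the pars tuberalis and 546 in the hypothalamus. Over the 6 hypothalamus libraries without library 11 it was found in 273, and fewer libraries give narrower ranges. The typical distance of a library from the others of its group (median over features of the absolute log2 difference from the mean of the others) was 0.240 ± 0.0525 in the pars tuberalis and 0.250 ± 0.101 in the hypothalamus (SD, n = 7 each; two-sided exact permutation p = 0.822). That p-value does not show the spreads to be alike. In the hypothalamus, libraries 12 and 11 were farthest out at 0.410 and 0.383, and the other 5 lay between 0.164 and 0.214. The pars tuberalis libraries ran from 0.185 to 0.333.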

How the data were processed

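Gene expression was measured by RNA sequencing, and the authors deposited raw counts as whole numbers per Ensembl sheep gene ID in 1 table with 42 library columns, none of them without a sample (0 unmatched). The tools named, per the submitters' processing notes and without role or order, were HISAT2 2.1.0, StringTie 1.3.5, SAMtools 1.7, Trimmomatic 0.38, FastQC 0.11.5, R 3.5.1 and DESeq2. Genome build, annotation, strand and the treatment of shared reads were not given in the sources used here. Values of near-identical, overlapping or antisense genes are therefore uncertain. Per the labels' protocols, RNA came from frozen tissue and passed an integrity threshold.

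The 14 follicular libraries were fitted alone with edgeR 4.0.16 in R 4.3.3 (TMM, filterByExpr with a minimum count of 10, robust quasi-likelihood F test and glmTreat against 2-fold, Benjamini-Hochberg adjustment over all features tested, threshold 0.05). The luteal and anestrous libraries were fitted likewise, and the difference between phases was tested over all 42 libraries. For CPM, each library was scaled by its TMM-adjusted total, and log2 values per library use a pseudocount of 0.5. Library measures were compared by exact permutation of 7 against 7. The scripts were tested on simulated data. Named features were, in either direction, the one with the lowest p of the 2-fold test and the one with the highest mean CPM among separated 2-fold calls, and for the phase difference the lowest p. The gene lists and cell type markers written down for this comparison need gene symbols and were not used. The comparison, the lists and the rules were chosen with earlier results of these data known. Alternatives were other scalings and filters, DESeq2 1.42.0, limma-voom (limma 3.58.1), 4 surrogate variables (sva 3.50.0), a covariate and leaving out each library. Intervals cover the spread between libraries as fitted.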

Additional observations from a re-analysis of the deposited data

Results flagged for a closer look

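In 28 groups of 7 libraries checked for a single value far from the others, 8 stood out. Of these, 3 fell among 4 groups of features chosen because a single library was high (ENSOARG00000009137 and ENSOARG00000013347), where the choice favours that outcome. In the other 24 groups 5 stood out, 4 of them in hypothalamus library 11. Chance gives about 1 in 20 for independent groups of normally distributed values. CPM were checked without a log scale, and whether the values follow that distribution was not tested. These 4 were the median of the pars tuberalis features (3.07 CPM, next 0.996), the median of the hypothalamus features (5.91 CPM, next 14.1), the share of the 10 largest features (38.5%, next 29.5%) and ENSOARG00000007112 (70.3 CPM, next 27.4). The share of the 10 largest features was high among follicular hypothalamus libraries only. It reached 43% in luteal hypothalamus library 3 and 40.8% in anestrous hypothalamus library 18. Library 11 also stood out in the features chosen after their values were seen, ENSOARG00000009137 (221215 CPM, next 50511) and ENSOARG00000013347 (642 CPM, next 388). These values belong to 1 library and are not independent of each other. In pars tuberalis library 33, ENSOARG00000013347 lay at 14807 CPM against 1429 CPM in the next library. In hypothalamus library 12, 17765 features were detected at the common depth against 18316 in the next library.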

How the results depend on the processing

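The count of tissue differences stayed between 9660 and 11340 and that over 2-fold between 2512 and 4070 under all alternatives. With library totals alone, 49.2% of the 2-fold calls were higher in the pars tuberalis in place of 37.7%. Leaving out each library gave 9849 to 10728 and 2800 to 3605 calls, the highest without library 11. The 4 features named by rule kept direction and call against no difference in every alternative in which they were tested. ENSOARG00000009137 lost its call in 14 alternatives, and ENSOARG00000013347 with the share of the 10 largest features as covariate (log2 fold change 2.23, edgeR adjusted p = 0.157). Features at 0 in 1 tissue numbered 13, and 27 or 6 with at least 5 or 20 counts asked for in the other tissue, and 13 to 35 when a library was left out (35 without library 11, 23 without library 12, 20 without library 32). The phase difference was called for 7 features by DESeq2 and 0 to 2 when a library was left out; the 2, ENSOARG00000001727 and ENSOARG00000013216, came without pars tuberalis library 34. The difference of library distances ran from -0.0288 to 0.0161 and that of detected features from -294.6 to -129.9 when a library was left out; the causes were not tested. Leaving out libraries 11 and 12 together, or 11 and 15 for the phase difference (0 called), was chosen after seeing the data. No paired analysis was possible because the follicular groups share no library number and the labels tie no library to a ewe.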

Other observations

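The libraries that stood apart did so in different features. Hypothalamus library 11 lay over 4-fold above the mean of the other 6 in 273 features and over 4-fold below it in 87. Of the 273, 159 had the higher level in the pars tuberalis, and 2 in the hypothalamus, in both the luteal and the anestrous libraries, and of the 87, 73 were higher in the hypothalamus and 0 higher in the pars tuberalis there. For comparison, in both other phases 19.7% of all 16076 features favoured the pars tuberalis and 23.2% the hypothalamus. Hypothalamus library 12 lay over 4-fold below the other 6 in 243 features, of which 95 were higher in the hypothalamus and 35 higher in the pars tuberalis in the other phases, and over 4-fold above them in 38. It was the highest hypothalamus library in 181 of the 357 hypothalamus features and the lowest in 72. Hypothalamus library 14 had 69 features over 4-fold above the others and 9 below, and 17 of the 69 were higher in the pars tuberalis in the other phases. The pars tuberalis libraries had from 7 to 66 features over 4-fold above and from 13 to 40 below. The causes of these differences were not tested.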
